A study of Mus musculus with 4 samples.

Results

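Nkx2-1 and Lhx6 are 2 of the 32285 genes counted in 4 single-cell RNA libraries from the medial ganglionic eminence (MGE), a progenitor domain of the ventral embryonic forebrain. The pair was chosen by name, and each gene was taken by its symbol in the deposited gene list, so both members are accounted for in every library. Their detection was read in 7835 progenitors and 10149 neurons among 18267 cells that held at least 3000 unique molecular identifiers (UMIs, each standing for 1 captured RNA molecule) and at most 10% of UMIs from mitochondrial genes. The libraries came from E14.5 mouse embryos on a C57/BL6 ICR mix background. There were 2 wildtype libraries (WT 1 and WT 2) and 2 St18(-/-) libraries (null 1 and null 2), made to ask what loss of St18, a zinc finger transcription factor, does to cells of the MGE. The null allele lacks the floxed St18 exons 9 and 10 in the whole animal after germline E2a-Cre recombination, the wildtype embryos were littermates from heterozygous parents, and the tissue of several embryos of 1 genotype was pooled before dissociation. No group received a treatment, and how many embryos of which sex went into a pool is not stated.

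NKX2-1 is a homeodomain transcription factor that patterns the ventral telencephalon and specifies MGE progenitors. It activates Lhx6, which encodes a LIM homeodomain factor needed for the migration and maturation of the cortical and striatal interneurons born in the MGE. Cortical interneurons are known to switch Nkx2-1 off as they leave the MGE and to keep Lhx6, while several striatal and pallidal types keep both. The order in which the mRNAs appear, overlap and part along this path can be read cell by cell, within the limit that a cell with no UMI of a gene may still hold its mRNA.

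Nkx2-1 (ENSMUSG00000001496) lies on the minus strand at chr12:56531958-56536908 of GRCm38, with 2 annotated transcripts and 4 distinct exons. Its 5′ part overlaps the antisense gene Gm26973 on the plus strand, which is listed as a gene of its own. The use of strand in counting is not stated in the sources used here. Whether reads from the overlap were kept apart is therefore not known. Lhx6 (ENSMUSG00000026890) lies on the minus strand at chr2:36081953-36105408, with 9 transcripts, 21 distinct exons and 3 annotated promoters in RefSeq. The 250 bases before the start of Nkx2-1 (chr12:56536909-56537158) and before the farthest upstream start of Lhx6 (chr2:36105409-36105658) are given below from RefSeq (GRCm38.p6, minus strand, 5′ to 3′) as the proximal stretch that was searched for motifs.
Nkx2-1: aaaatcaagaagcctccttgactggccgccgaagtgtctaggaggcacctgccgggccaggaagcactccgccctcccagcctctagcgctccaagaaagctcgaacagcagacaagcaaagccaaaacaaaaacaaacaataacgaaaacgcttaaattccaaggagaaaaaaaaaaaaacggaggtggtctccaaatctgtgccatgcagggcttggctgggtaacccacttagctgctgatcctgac
Lhx6: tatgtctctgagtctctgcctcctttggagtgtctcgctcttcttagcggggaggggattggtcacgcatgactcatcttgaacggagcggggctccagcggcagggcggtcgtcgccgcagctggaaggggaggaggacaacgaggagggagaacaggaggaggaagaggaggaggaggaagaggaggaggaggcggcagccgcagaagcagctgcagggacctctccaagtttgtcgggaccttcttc
The 300-base windows (250 bases before to 50 after the start) of Nkx2-1 and of the 3 Lhx6 promoters were searched on both strands for CAAGTG and CTCAAG, cores bound by NKX2-type homeodomains, and for TAATTA, a core of LIM and other homeodomains. None of the 4 windows held any of the 3 motifs, so no letters are capitalised. Among all 32851 RefSeq promoter windows, 13.6% held CAAGTG, 15.9% CTCAAG and 5.29% TAATTA. The absence of these letters from these windows says nothing about binding elsewhere.

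The libraries held 70991150 to 92984713 UMIs, 40.2% to 59.7% of them in called cells, and the filters kept 3758 to 6279 cells per library. Pairs of libraries shared 4 to 11 cell barcodes. By the study's account, St18 RNA remains in null cells but is lower in null neurons, while the protein was not detected in null embryos. The library labelled null 2 went against its label: St18 stood at 47.4 CPM (a gene's UMIs scaled to a library total of 1e+06) in its progenitors and 76.4 in its neurons, above both WT libraries (32.0 and 40.9 in progenitors, 44.1 and 59.2 in neurons), while null 1 had 15.7 and 24.9. Within null 2, cells with Xist and without Y-linked RNA had 97.2 CPM of St18 in neurons and cells with Y-linked RNA had 30.3. The WT libraries were nearly without Xist (0.08 and 0.21 CPM in neurons, against 595 and 1467 in the null libraries), so genotype and the share of female cells cannot be told apart across all cells. Genotype results are therefore given with and without null 2. The labelled tissue was checked by its markers: 26 clusters fell into 10 of progenitors and 13 of neurons, and 3 more of 153 erythroid, 96 microglia and 34 oligodendrocyte precursor cells. Among neuron clusters, 3 carried lateral ganglionic eminence (LGE) markers, 1 caudal ganglionic eminence (CGE) and 1 pallial excitatory markers.

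To compare cells of unequal depth, each cell was thinned at random to 3000 UMIs, and a gene was called detected with at least 1 UMI. In progenitors Nkx2-1 was detected in 62.1% and 65.5% of cells of WT 1 and WT 2 and in 65.9% and 63.2% of null 1 and null 2 (64.2% ± 1.83, SD, n = 4). The exact 95% binomial intervals run from 59.8 to 64.3 in WT 1 and from 64.2 to 67.7 in null 1. In neurons the shares were 44.7%, 47.1%, 42.9% and 44.9% in the same order (44.9% ± 1.75), with all 4 neuron values below all 4 progenitor values. Lhx6 ran the other way. It was detected in 29.4% and 33.7% of WT progenitors and 35.4% and 39.6% of null progenitors (34.5% ± 4.20), with intervals from 27.4 to 31.6 in WT 1 and from 37.1 to 42.1 in null 2. In neurons it was detected in 56.1% and 58.9% of WT cells and 60.8% and 65.9% of null cells (60.4% ± 4.13), again without overlap between the classes. All intervals cover counting error only.

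The same order held in summed UMIs. Nkx2-1 stood at 405 to 451 CPM in progenitors and 276 to 303 CPM in neurons, a ratio of 1.44 to 1.58 within the 4 libraries. Lhx6 stood at 143 to 231 CPM in progenitors and 352 to 504 CPM in neurons, a ratio of neurons to progenitors of 2.18 to 2.46. In summed counts, fewer cells with a transcript and less RNA per cell cannot be told apart. Progenitors and neurons were separated by clustering the same cells, so these contrasts are descriptions and were not tested.

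Cells that should lack both genes gave the background. Of 153 erythroid cells, 4 held Nkx2-1 (2.61%, exact 95% interval 0.717 to 6.56) and 10 held Lhx6 (6.54%, 3.18 to 11.7). Of 96 microglia, 13 held Nkx2-1 (13.5%, 7.41 to 22.0) and 7 held Lhx6 (7.29%, 2.98 to 14.45). Neurons of the LGE clusters had 8.47% and 9.04%. These cells had median depths of 11387 (erythroid) and 10218.5 UMIs (microglia) before thinning, against 7938 to 11990.5 in progenitors and 5492.5 to 8155 in neurons, and droplets under 100 UMIs held 201 to 259 CPM of Nkx2-1 and 155 to 218 CPM of Lhx6. By library, LGE-cluster neurons held Lhx6 in 13.9% (null 2), 8.26% (null 1), 7.30% (WT 1) and 6.05% (WT 2) of cells. Null 2 also held the most Lhx6 in these droplets (218 CPM). Small groups went higher, with Nkx2-1 in 8 of 35 microglia of WT 2. Shares up to 13.5%, the highest pooled share of these cells, are thus not read as expression below.

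The 2 genes were found in the same cell more often than independent detection gives. Among progenitors, both were detected in 21.4% and 24.2% of WT cells and 27.6% and 29.4% of null cells (25.7% ± 3.59), against 22.2% ± 2.87 from the product of the single shares, a ratio of 1.16 ± 0.04. Nkx2-1 alone was the largest category with 38.5% ± 3.43, Lhx6 alone was the smallest with 8.89% ± 1.14, a share that single genes also reached in background cells, and 26.9% ± 2.07 had neither. Lhx6 was detected in 39.9% ± 5.40 of progenitors with Nkx2-1 and in 24.9% ± 3.27 of those without it. The log2 odds ratio of co-detection was 0.95 and 0.61 in WT and 1.28 and 1.19 in null progenitors (1.01 ± 0.30), above 0 in 4 of 4 libraries. The median doublet score of progenitors with both genes was 0.0277 to 0.0357 over the libraries, against 0.0324 to 0.0364 for those with Nkx2-1 alone.

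Among neurons, both genes were detected in 30.3% and 32.0% of WT cells and 31.9% and 34.6% of null cells (32.2% ± 1.78), against 27.1% ± 2.0 from the product of the shares, a ratio of 1.19 ± 0.03. Lhx6 alone made up 28.2% ± 2.43, Nkx2-1 alone 12.7% ± 2.38 and neither 26.9% ± 2.54. The mean share with Nkx2-1 alone was within the background range above (up to 13.5%), but not every library was. It was 14.37% in WT 1 and 15.08% in WT 2, above that range. In null 1 and null 2 it was 10.98% and 10.34%, within the range. The difference between genotypes in this share was not tested. Nkx2-1 was detected in 53.3% ± 1.02 of neurons with Lhx6 and in 31.9% ± 3.71 of those without it. The log2 odds ratio was 1.27 and 1.04 in WT and 1.51 and 1.34 in null neurons (1.29 ± 0.19). At this limit of 1 UMI, neurons with both genes outnumbered those with Lhx6 alone in each of the 4 libraries. In the groups compared at a limit of 2 UMIs, neurons with both were fewer in each. These groups do not hold every neuron with 2 UMIs of Lhx6, so their sizes do not give the order at that limit. The group sizes were 354 against 486 in null 1 and 291 against 358 in null 2. In WT 1 and WT 2 they were 222 against 280 and 215 against 298. The log2 odds ratio at 2 UMIs stayed above 0 on average (1.12 in neurons, 0.49 in progenitors). By the odds ratio the pair was not mutually exclusive in either class.

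**Figure D1:**
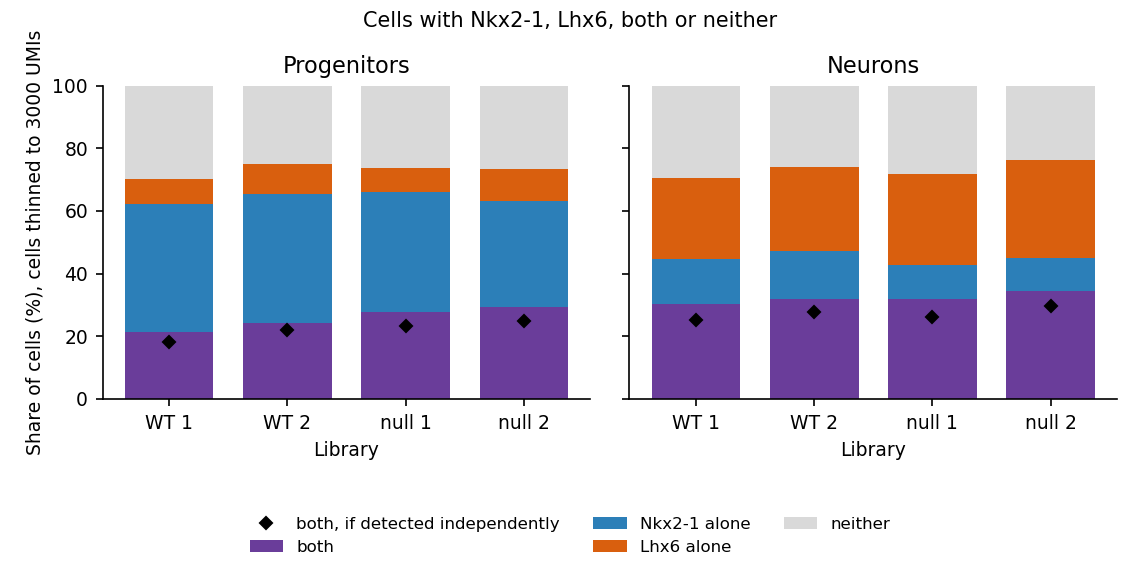
Share of cells (percent, y axis) with both genes, Nkx2-1 alone, Lhx6 alone or neither after thinning to 3000 UMIs, in progenitors and neurons of each of the 4 libraries, with diamonds at the share with both that independent detection gives. The diamonds lie within the bar of both in every library, and Nkx2-1 alone is the largest category in progenitors (mean 38.5%) and the smallest in neurons (12.7%).

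Part of the co-detection lay between clusters. Within clusters the log2 odds ratio was 0.38 ± 0.30 in progenitors, from -0.04 in WT 2 to 0.64 in null 2, and 0.49 ± 0.18 in neurons, where all 4 libraries stayed above 0 (0.31 to 0.72). When cells were compared within bins of maturation, defined next, it was 0.76 ± 0.26 in progenitors and 1.12 ± 0.17 in neurons. Neurons of clusters without LGE, CGE or pallial markers had 50.1% ± 1.32 with Nkx2-1, 68.5% ± 5.30 with Lhx6 and 36.5% ± 2.32 with both, with a log2 odds ratio of 0.58 ± 0.15 (0.79, 0.47, 0.55 and 0.51 in null 1, null 2, WT 1 and WT 2). The CGE-marked cluster left out here was not low in the pair. Over its pooled cells Nkx2-1 was detected in 61.9% and Lhx6 in 76.2%.

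Cells of each library were then ranked by the mean standardised level of 7 neuron markers minus that of 10 progenitor markers, neither list holding Nkx2-1 or Lhx6, and divided into 10 bins of equal size. The ranking is a maturation order by markers and not a lineage. From the first to the last bin, Hes5, a Notch target of radial glia, went from 79.2% to 4.0% of cells, and Dcx, a microtubule protein of migrating neurons, went from 8.51% to 92.0%. Both are markers of the ranking, and their course is set by it. Averaged over libraries, Nkx2-1 was detected in 50.1% of cells in the first bin and stood highest in the fourth with 70.5%. It was lower in each later bin, down to 26.8% in the last. By library its highest bin was the second in WT 2 (70.3%) and the third in WT 1 (70.4%). Lhx6 started at 7.24%, within the background range above, reached 25.5% in the second bin and 53.5% in the fourth, stood highest in the seventh with 69.9%, and ended at 38.9%. In null 2 (77.5%) and WT 2 (68.3%) Lhx6 stood highest in the sixth bin. In the first 9 bins its share was highest in null 2 among the 4 libraries, as was its background share in LGE-cluster neurons (13.9%). Lhx6 was therefore already detected in bins where most cells still belonged to progenitor clusters: neurons made up 23.5% of the fourth bin and 63.3% of the fifth. Dcx was detected in 17.5% to 24.1% of cells of the second bin over the libraries. In the fourth bin it was already in 57.5% to 71.1%.

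The share with both genes followed neither single course. It was 4.48% in the first bin, 39.8% in the fourth, highest with 42.7% in the sixth, and 16.2% in the last. In null 1 it was highest in the fifth (45.0%). Read among cells with Nkx2-1, the share that also held Lhx6 went from 8.92% in the first bin to 75.7% in the eighth. In the last bin it was lower in each library, at 54.5% to 66.4%. Read among cells with Lhx6, the share that also held Nkx2-1 was 80.1% in the second bin, 64.7% in the fifth and 41.6% in the last. The late bins held many neurons of region-marked clusters, with 36.4% of the last bin in LGE clusters. Without clusters of a region marker, the CGE-marked one among them, the last bin had 38.5% of cells with Nkx2-1 and 58.4% with Lhx6.

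**Figure D2:**
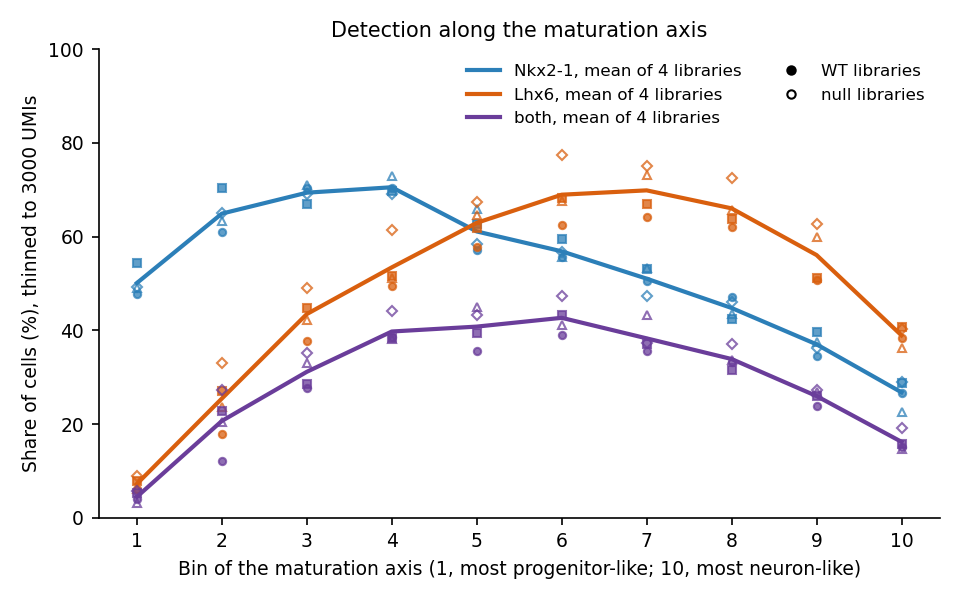
Share of cells (percent, y axis) with Nkx2-1, with Lhx6 and with both over 10 bins of the marker ranking from progenitor-like to neuron-like (x axis). Lines are means of 4 libraries, and points are WT 1 (filled circles), WT 2 (filled squares), null 1 (open triangles) and null 2 (open diamonds). By the means, Nkx2-1 is highest in the fourth bin (70.5%), both together in the sixth (42.7%) and Lhx6 in the seventh (69.9%). The highest bin differs between libraries.

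Across clusters, Nkx2-1 was highest in cluster 4, progenitors led by S-phase histone genes (622 CPM ± 32.4), followed by progenitor clusters 3 (595 CPM) and 12 (592 CPM). The neuron clusters with the highest levels were cluster 1 (550 CPM), led by St18, Prox1 and Npy, and cluster 10 (528 CPM), led by Shh, Zic1 and Lhx8. It was lowest in clusters 16 (22.1 CPM) and 13 (27.4 CPM), LGE-marked neurons, and in the pallial excitatory cluster 24 (29.8 CPM). Lhx6 was highest in cluster 10 (634 CPM ± 164), then in cluster 5 with Sst and Gbx1 (567 CPM), the CGE-marked cluster 15 (561 CPM) and cluster 1 (535 CPM). It was lowest in progenitor clusters 14 (17.9 CPM), led by Hes5, Otx2 and Rgcc, and 6 (21.7 CPM), led by Hes1 and Nkx6-2.

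Most neighbours in these orders overlapped between libraries. For Nkx2-1, 5 of the steps down the order separated all 4 libraries, and for Lhx6 none did. Cluster 0, led by Maf, Erbb4 and Mef2c, genes known from migrating cortical interneurons, held Lhx6 at 412 CPM and Nkx2-1 at 169 CPM. Cluster 22, 114 neurons led by the vesicular acetylcholine transporter gene Slc18a3 and Zic4, went the other way, with Nkx2-1 at 351 CPM ± 39.5 and Lhx6 at 91.7 CPM ± 23.6. Over the pooled cells of cluster 22, Nkx2-1 was detected in 50.9%, Lhx6 in 17.5% and both in 7.02%, against 8.93% from the product of the shares. The log2 odds ratio there was below 0 on average (-1.15) but ran from -1.95 to 0.17 over the libraries. A deficit of cells with both was thus not detectable at this number of cells.

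**Figure D3:**
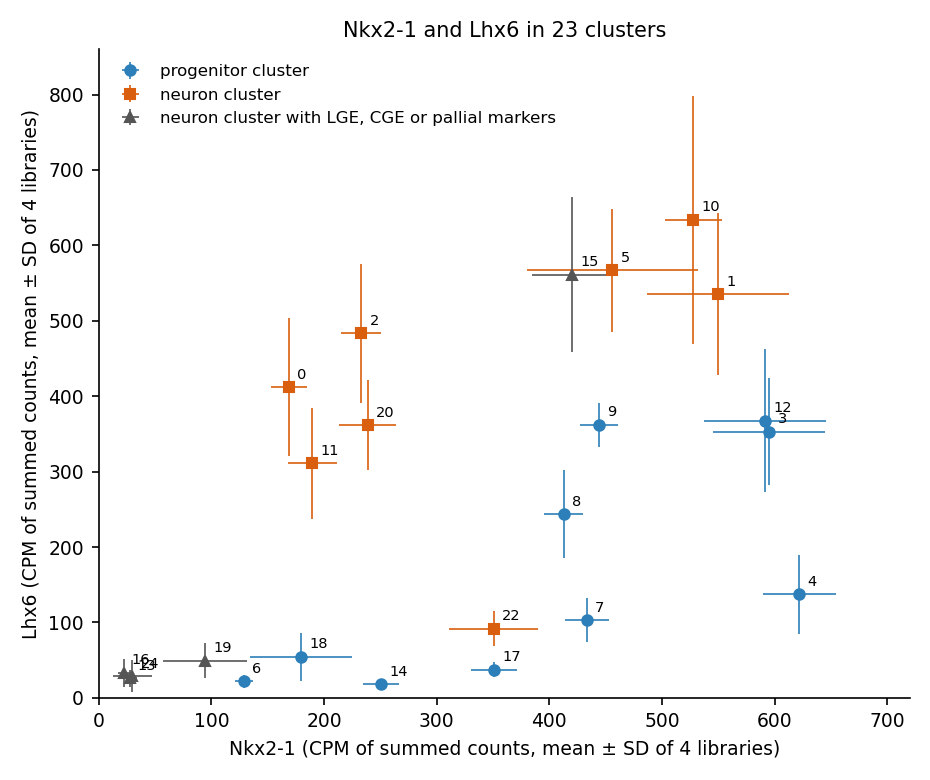
Level of Nkx2-1 (x axis) and Lhx6 (y axis) in CPM in each progenitor and neuron cluster, as the mean of 4 libraries with SD bars. Cluster 10 is high in both (528 and 634 CPM), cluster 0 has Lhx6 with less Nkx2-1 (412 and 169 CPM), and cluster 22 has Nkx2-1 with little Lhx6 (351 and 91.7 CPM).

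Over the 23 progenitor and neuron clusters, the log level of Nkx2-1 and that of Lhx6 had a Pearson correlation of 0.69, with 0.80 among the 10 progenitor clusters and 0.90 among the 13 neuron clusters. These clusters share libraries and background RNA, and the values are descriptions. Among 5634 genes, the 5 most like Nkx2-1 over these clusters were Sfta3-ps (0.93), Mbip (0.92), Lima1 (0.90), Crabp2 and Mpdz (0.84 each). Sfta3-ps and Mbip also lie on chromosome 12, on the same strand as Nkx2-1, Sfta3-ps 2.53 kb and Mbip 186 kb away. Among the genes most like Lhx6 were Dlx1as (0.91), Dclk2 (0.88), Dlx6os1 (0.87) and Rai2 (0.85). Dlx1as and Dlx6os1 are antisense to Dlx genes, and whether their reads were kept apart from those of their partners is likewise not known.

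Each member was next paired in the same way with genes of 5 lists: upstream regulators of the MGE, proneural and Dlx genes, postmitotic MGE factors and receptors, genes of neighbouring regions, and cell cycle and Notch genes. In progenitors, 34 listed genes were detected in at least 5% of cells of every library. The median log2 odds ratio with Nkx2-1 was 0.28, and 3 genes exceeded the 1.01 of the Nkx2-1 and Lhx6 pair: Dlx1 (1.55 ± 0.20), Dlx2 (1.14) and Prox1 (1.03 ± 0.16). With Lhx6 the median was 0.36 and 9 genes exceeded the pair, among them Lhx8 (1.76 ± 0.22), Dlx1 (1.64 ± 0.55) and Sox6 (1.54 ± 0.18). In neurons, 33 genes were read. None exceeded the pair's 1.29 with Nkx2-1, while with Lhx6 Sox6 (1.58 ± 0.28), a factor that acts in MGE interneurons after Lhx6, stood above it.

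Odds ratios below 0 in all 4 libraries, for fewer cells with both genes than independent detection gives, were found with other genes. They were taken over whole classes, not within clusters or bins, and do not mean that no cell held both. In progenitors, the log2 odds ratio with Lhx6 was -2.49 ± 0.26 for Ccnd1, a G1 cyclin, -2.43 ± 0.36 for Hes1 and -2.17 ± 0.23 for Hes5, Notch targets of radial glia. With Nkx2-1 the same genes had -1.16 ± 0.29, -1.27 ± 0.14 and -0.86 ± 0.26. Olig2, a factor of ventral progenitors, was below 0 in 4 of 4 libraries with Lhx6 (-1.56 ± 0.26) but in 3 of 4 with Nkx2-1 (-0.19 ± 0.15). In neurons, both members were below 0 in all libraries with Isl1 (Nkx2-1 -1.99 ± 0.31, Lhx6 -3.23 ± 0.32) and Ebf1 (-2.30 ± 0.63, -2.78 ± 0.26), markers of LGE projection neurons, and with Meis2 (-1.22 ± 0.11, -1.96 ± 0.19). Among the listed genes, a few lay on opposite sides of 0 for the 2 members. Erbb4 was at -0.16 ± 0.02 with Nkx2-1 and 0.98 ± 0.27 with Lhx6, and Maf at -0.31 ± 0.13 and 0.81 ± 0.27. Mef2c was at -0.94 ± 0.13 with Nkx2-1 and -0.09 ± 0.10 with Lhx6, below 0 in 4 and in 3 libraries.

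**Figure D4:**
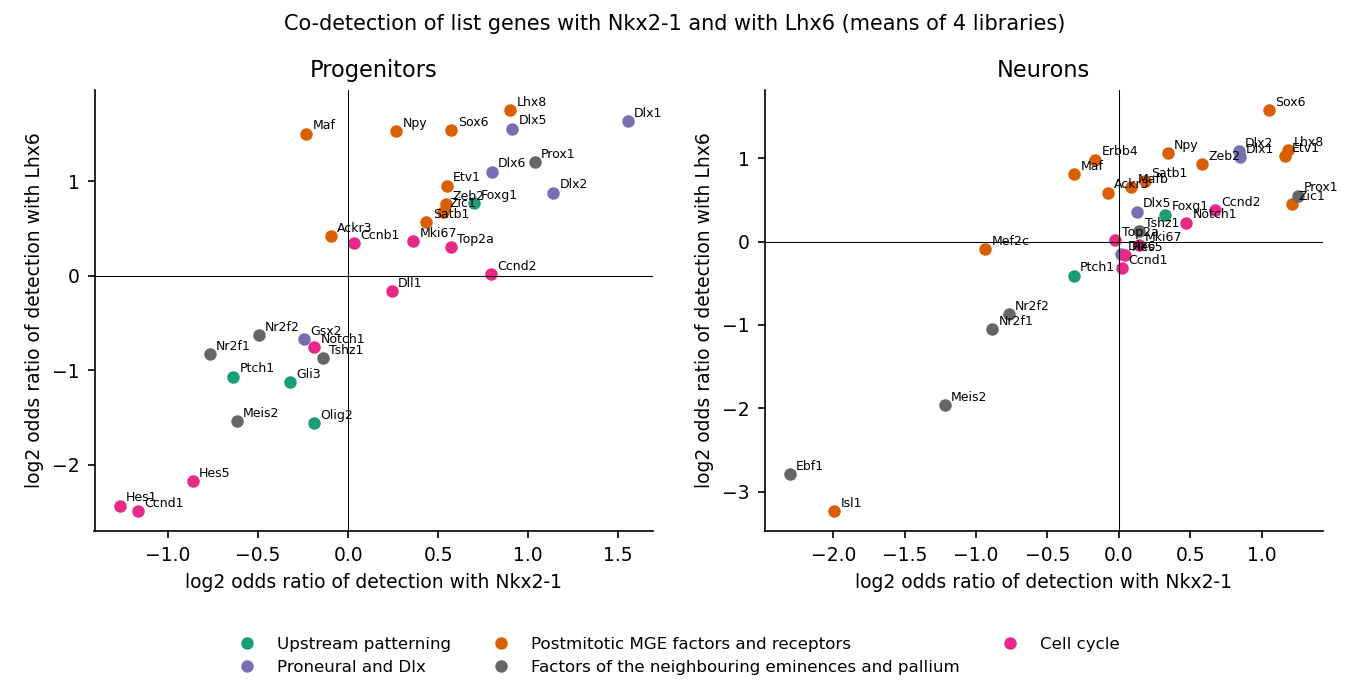
Log2 odds ratio of co-detection of listed genes with Nkx2-1 and with Lhx6 in progenitors and neurons, on the x and y axes, as means of 4 libraries coloured by list, with 0 for independent detection. Erbb4 and Maf lie on opposite sides of 0 for the 2 members in neurons, and Isl1 and Ebf1 lie below 0 for both.

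To see what goes with Lhx6 among progenitors with Nkx2-1, UMIs were summed per library over cells with both genes and cells with Nkx2-1 alone. The sums were compared with the library as a block. Categories came from thinned counts, while all UMIs of a cell were summed. With all UMIs, Lhx6 was detected in 58.8% of progenitors with Nkx2-1, against 39.9% after thinning. Cells with Nkx2-1 alone may thus hold Lhx6 UMIs that thinning left out. Progenitors with both genes had less Hes5 and Fabp7 RNA, both genes of radial glia, and more Lhx8, Maf and Gad1 RNA. The Notch target Hes5 was at 71.7 to 91.7 CPM in cells with both and 422 to 452 CPM in cells with Nkx2-1 alone, with no overlap. Lhx8, a LIM homeobox gene of MGE-derived neurons, was at 183 to 214 CPM against 51.8 to 81.9 CPM. Of 11787 genes tested, 5449 (46.2%) passed edgeR's quasi-likelihood test at an adjusted p of 0.05, 2654 higher (22.5%) and 2795 lower (23.7%) with both, so that passing this test is common and the size of a difference says more than its call. Hes5 fell by 2.52 on the log2 scale (SE 0.05, adjusted p = 5.37e-45) and Lhx8 rose by 1.57 (SE 0.05, adjusted p = 1.21e-33).

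By the rule for named genes, the largest rises were in Plxna4 (log2 1.79), a semaphorin co-receptor, Maf (1.62), Lhx8, Gad1 (1.55), which makes GABA, Runx1t1 (1.53) and Csrnp3 (1.52). The largest falls were in Rgcc (-2.85), Sparc (-2.52), Hes5, Fabp7 (-2.34), Mfge8 (-2.24) and Ednrb (-2.18), several of them known radial glia genes. Of the 7 upstream regulators tested, 2 rose and 5 fell (median log2 -1.04, against 0.00 over all genes). Otx2 fell by 2.40, Olig2 by 1.29 and Gli3 by 1.11, while Shh, the ventral morphogen, passed as higher (1.5) at 3.73 to 11.2 CPM against 0.913 to 5.14 CPM but was lower with both in WT 1. Of 8 proneural and Dlx genes, 5 rose and 3 fell (median 0.25), with Dlx5 at 1.07 and Dlx2 at 0.22. Of 15 postmitotic MGE genes, 11 rose and 1 fell (median 0.64), with Npy, a neuropeptide of interneurons, at 1.35 and Sox6 at 1.27. The 1 that fell was Isl1, which is also an LGE marker, at -0.96. Of 7 genes of neighbouring regions, 2 rose and 4 fell (median -0.34), with Prox1 at 0.79 and Meis2 at -1.12. Of 9 cell cycle and Notch genes, 4 rose and 5 fell (median -0.28), with Hes1 at -2.36, Ccnd1 at -2.17 and Mki67 at 0.28.

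Cells with both genes stood further along the marker ranking, with median positions of -0.59 to -0.47 against -1.03 to -0.87 for Nkx2-1 alone, and the part of this shift in the differences was not tested. When equal numbers of cells of both categories were drawn from every cluster, the shift was smaller but remained in 4 of 4 libraries (-0.66 to -0.49 against -0.90 to -0.67). In that draw 1302 of 10711 genes (12.2%) passed, 1246 of them among those above. Hes5 then fell by 1.23 and Lhx8 rose by 0.89, while Dlx2 (-0.02) and Mki67 (-0.02) turned sign without passing, and Shh (0.53) and Hes1 (-0.47) no longer passed. With equal cell numbers 8 of 15 postmitotic MGE genes rose and 1 fell, and 6 of 9 cell cycle and Notch genes fell and none rose.

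**Figure D5:**
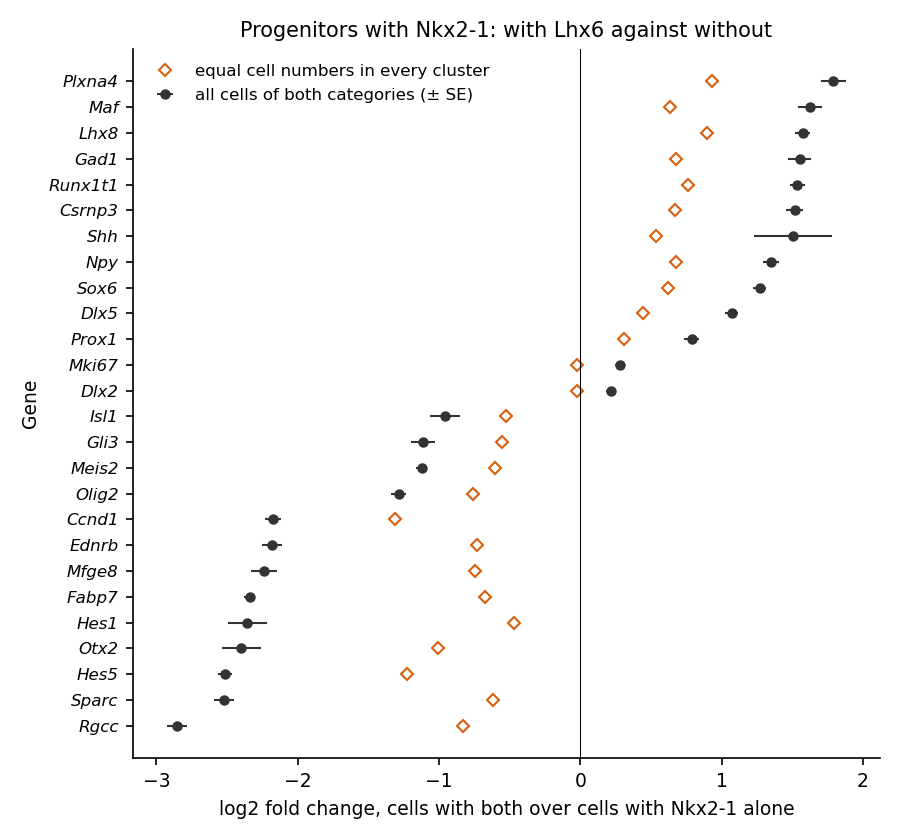
Log2 fold change (x axis) of the 26 named genes (y axis) in progenitors with both genes over progenitors with Nkx2-1 alone, from all cells (points, ± SE) and from equal cell numbers in every cluster (open diamonds). Every diamond lies nearer 0 than its point or, for Dlx2 and Mki67, at -0.02 past it.

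Neurons that held Nkx2-1 beside Lhx6 were compared in the same way with neurons that held Lhx6 alone. With all UMIs, Nkx2-1 was detected in 68.3% of neurons with Lhx6, against 53.3% after thinning. Cells with Lhx6 alone may thus hold Nkx2-1 UMIs that thinning left out. Neurons with both genes had more RNA of Sfta3-ps (2.53 kb from Nkx2-1), Mbip (186 kb from it) and St18. They had less of Ebf1 and Mef2c. Sfta3-ps was at 164 to 212 CPM against 55.4 to 73.5, and Mbip at 114 to 149 against 42.6 to 54.5, without overlap. St18 was at 42.1 and 133 CPM in null 1 and null 2 and 79.5 and 106 in the WT libraries with both genes, against 17.9, 50.4, 27.0 and 39.1 with Lhx6 alone. St18 levels overlapped between the categories across libraries and were higher with both in each of the 4. By edgeR's quasi-likelihood test 1154 of 11419 genes (10.1%) passed, 516 higher (4.52%) and 638 lower (5.59%). Sfta3-ps rose by 1.49 on the log2 scale, St18 by 1.41 (SE 0.07, adjusted p = 3.2e-32), Mbip by 1.4, Zic1 by 1.16, Kitl by 1.12 and Prox1 by 0.84. Ebf1 fell by 2.33, Mef2c by 1.12, Chl1 by 1.09, Meis2 by 1.06, Snhg11 by 1.0 and Epha5 by 0.96.

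Among the lists in these neurons, 2 of 5 upstream regulators rose and none fell (median log2 0.16, with Shh at 0.67), and 3 of 8 proneural and Dlx genes rose and 1 fell (median 0.11, with Dlx1 at 0.24). Of 17 postmitotic MGE genes, 4 rose and 9 fell (median -0.18), with Etv1 at 0.79, Lhx8 at 0.57 and Sox6 at 0.33 among those that rose, and with Maf at -0.68 and Erbb4 at -0.41. Isl1, also an LGE marker, was among those that fell. Of 7 genes of neighbouring regions 1 rose and 4 fell (median -0.66), and of 9 cell cycle and Notch genes 2 rose and none fell, with Ccnd2 at 0.58. Neurons with both genes stood earlier on the marker ranking in 4 of 4 libraries, with median positions of 0.45 to 0.54 against 0.56 to 0.71 for Lhx6 alone, and the part of this shift in the differences was not tested. With equal numbers of cells from every cluster the positions were 0.52 to 0.60 against 0.56 to 0.68, still earlier in each library, and 346 of 10846 genes (3.19%) passed, 308 of them among the 1154. Of the postmitotic MGE genes 5 then rose and 5 fell, and no proneural or Dlx gene passed. St18 then rose by 0.68 and Mef2c fell by 0.66, while Ebf1 (-0.20, adjusted p = 0.576 by edgeR) and Meis2 (-0.15, adjusted p = 0.333) no longer passed.

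Neither member passed the test between genotypes. In progenitors Nkx2-1 was at 437 and 451 CPM in null 1 and null 2 and 405 and 438 CPM in WT 1 and WT 2, and in neurons at 276 and 293 against 281 and 303 CPM. These groups overlapped. Summed counts per library and class gave log2 fold changes of null to WT of -0.12 (SE 0.12, edgeR adjusted p = 0.62) in progenitors and -0.19 (SE 0.11, adjusted p = 0.419) in neurons. Scaled by library totals instead, the progenitor value was 0.08. Lhx6 was at 173 and 231 CPM in null progenitors against 143 and 168, and at 389 and 504 CPM in null neurons against 352 and 373, with both null libraries above both WT libraries in either class. Its log2 fold changes were 0.18 (SE 0.14, edgeR adjusted p = 0.53) in progenitors and 0.15 (SE 0.13, adjusted p = 0.581) in neurons.

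The Lhx6 values rested on null 2, whose St18 goes against its label. Without null 2 they were 0.03 in progenitors and 0.01 in neurons, and without null 1 they were 0.32 and 0.30. Each of these fits leaves 1 null library and holds no spread between null libraries, so only fold changes are given. Within null 2, Lhx6 in neurons was at 486 CPM in cells with Y-linked RNA and 523 CPM in cells with Xist, both above the other 3 libraries. Droplets under 100 UMIs also held the most Lhx6 in null 2, at 218 CPM against 155 to 190 CPM elsewhere. The part of this background in the Lhx6 values was not tested. Without null 1, Nkx2-1 in progenitors was at -0.16, and without null 2 at -0.07. St18 itself was at -0.44 (edgeR adjusted p = 0.568) in progenitors and -0.20 (adjusted p = 0.813) in neurons, and without null 2 at -1.33 and -1.14. The study describes the libraries of a genotype as biological replicates. The edgeR p-values given between genotypes come from fits to all libraries and measure the spread between them.

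Of 13578 genes tested in neurons, 11 (0.081%) passed between genotypes, 5 higher (0.0368%) and 6 lower (0.0442%) in null. In progenitors 4 of 13590 passed (0.0294%), 2 in each direction (0.0147% each), none of them on a list. Of the listed genes in neurons, the interneuron neuropeptide Sst had 132 CPM in null 1 and 119 in null 2, against 246 in WT 1 and 217 in WT 2, and fell by 1.03 on the log2 scale (edgeR adjusted p = 0.0346). Gbx2, a homeobox gene, had 6.31 and 6.92 CPM in the null libraries, below the 12.8 and 16.4 of the WT libraries, and fell by 1.29 (adjusted p = 0.0346). Mki67, a proliferation marker, had 51.2 and 56.8 CPM in the null libraries, above the 25.8 and 22.5 of the WT libraries, and rose by 1.01 (adjusted p = 0.0346). Thus 2 of 17 postmitotic MGE genes fell and none rose (median 0.03), 1 of 9 cell cycle and Notch genes rose and none fell (median 0.46), and the other lists had no call, against a median of 0.00 over all genes. Without null 2, which leaves 1 null library, Sst was at -0.90, Gbx2 at -1.30 and Mki67 at 0.99, each in the same direction. With doublets left out at 2 times the rate, Mki67 was at 0.90 and no longer passed (edgeR adjusted p = 0.0524). In cells with Y-linked RNA alone the 3 genes kept their direction (-1.30, -1.80 and 1.08) and none passed.

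Co-detection was compared between genotypes over libraries by exact two-sided permutation tests, in which 2 libraries against 2 cannot give a p below 0.333. In progenitors the share with both genes was 5.76 percentage points higher in null (exact p = 0.333), that of Lhx6 5.94 points (exact p = 0.333) and that of Nkx2-1 0.763 points (exact p = 0.667), and the log2 odds ratio was 0.45 higher (exact p = 0.333). In neurons the differences were 2.07 points for both (exact p = 0.667), 5.84 points for Lhx6 (exact p = 0.333), -2.0 points for Nkx2-1 (exact p = 0.667) and 0.27 for the log2 odds ratio (exact p = 0.333). Adjusted over these 8 comparisons, p was 0.533 or 0.667. With all UMIs in place of thinned counts, the neuron share of Nkx2-1 was 3.09 points higher in null, a reversed sign. Leaving out null 2, null 1 alone stood above both WT libraries in the share of Lhx6 (35.4% of progenitors, 60.8% of neurons) and in the log2 odds ratio (1.28 and 1.51). Its share with both genes was above them in progenitors (27.6%) and between them in neurons (31.9%), and its share of Nkx2-1 was above them in progenitors (65.9%) and below them in neurons (42.9%). At 2 libraries a genotype, no difference in detection or co-detection could pass a threshold of 0.05.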

How the data were processed

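MGE tissue was profiled as droplet single-cell RNA libraries, 2 wildtype and 2 St18(-/-). The authors deposited UMI counts per gene and barcode for each library, and the deposited counts are raw and not normalised. The submitters' processing notes name Cell Ranger 5.0.1 and GRCm38, a matrix header names Cell Ranger 4, and the use of strand is not given in the sources used here. Depth was 70991150 to 92984713 UMIs per library.

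Groups came from the sample labels. Barcodes with at least 3000 UMIs, a mitochondrial share of up to 10% and 200 or more genes were kept, and the highest doublet scores were left out at 0.8% per 1000 cells (120 to 352 cells). Cells were clustered with Seurat 5.3.0 (2000 variable genes without the members, 49 components, resolution 1.4), and clusters were classed by markers. Detection was read after thinning each cell to 3000 UMIs. Odds ratios and shares were computed per library. Counts summed per library, and per detection category with the library as a block, were tested with edgeR 4.0.16 (quasi-likelihood test, TMM scaling, Benjamini-Hochberg over all genes tested). Shares were compared by exact permutation tests over libraries. Intervals are exact (Clopper-Pearson) at 95%.

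Genes named in a category comparison were the 6 with the largest change in each direction among those past the threshold, with at least 50 CPM in the higher category and 1 direction in 4 of 4 libraries, plus members of 5 lists. Some list genes were counted with their lists but are not reported here by name. Members, lists and tests were chosen with earlier results of these data known. The edgeR step was tested on simulated data: at a 2-fold change it recovered 100% of changed genes in each of the 4 comparisons, and at 1.5-fold 48% and 40% between genotypes in neurons and progenitors. Replicate numbers follow the order of the records and pair no samples. Alternatives were other scalings (RLE, library totals), no filter on low counts, DESeq2 1.42.0, other depths and detection limits, left-out libraries, a doubled doublet rate, cells with Y-linked RNA alone and, chosen after seeing the data, odds ratios within clusters or bins and equal cell numbers per cluster.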

Additional observations from a re-analysis of the deposited data

How the results depend on the processing

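The shares follow depth. In progenitors and neurons Nkx2-1 was at 86.0% and 60.0% with all UMIs, 78.4% and 56.5% at 5000 UMIs, and 35.9% and 22.5% when 2 UMIs were required, and Lhx6 at 54.3% and 75.2%, 44.9% and 72.5%, and 14.9% and 33.7%. The log2 odds ratio in progenitors was 1.96 with all UMIs, 1.68 at 5000 UMIs, 1.93 within depth bins, 0.49 at 2 UMIs and 0.38 within clusters. In neurons it was 2.04, 1.97 and 1.96 in the first 3, 0.49 within clusters and 0.58 without region-marked clusters. The neuron share of Nkx2-1, null minus WT, was 3.09 points with all UMIs and -3.97 points in cells with Y-linked RNA alone.

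Counts of genes between genotypes depended most on the setting. In neurons 337 passed with library totals (261 higher and 76 lower, a scaling that moves the median of all genes by 0.15), 345 without a filter, 300 with DESeq2, 1 in cells with Y-linked RNA and 68 to 2487 without 1 library. In progenitors 124 passed with library totals (90 higher and 34 lower, median moved by 0.19), 9 with RLE, 903 without a filter, 316 with DESeq2, 0 in cells with Y-linked RNA by edgeR and 31 to 4345 without 1 library. Among the counts without 1 library, the highest came without null 1 and the next without null 2 (256 in neurons, 1618 in progenitors). Each fit without 1 library leaves 1 library in a genotype, so its count does not rest on the spread between libraries of that genotype. At an unadjusted p under 0.05, 2364 genes in neurons and 2338 in progenitors passed.

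Neurons with both genes against Lhx6 alone gave 365 genes with DESeq2, 603 at 2 UMIs, 346 with equal cell numbers per cluster, 56 with no replicate block and 721 to 946 without 1 library. Progenitors with both against Nkx2-1 alone gave 3286, 2586, 1302 and 2158 in the same settings and 4506 to 5165 without 1 library. The block here is the library that both sums come from, and no samples were paired by number.

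Of the named genes, St18 between genotypes turned sign without null 1 (0.39 in neurons, 0.13 in progenitors) and without WT 2 (0.006 in neurons). Without null 2 it stood at -1.14 in neurons and -1.33 in progenitors. Nkx2-1 in progenitors turned sign with library totals (0.076). Between progenitor categories, Dlx2 turned sign at 2 UMIs (-0.0039) and with equal cell numbers (-0.021), and Mki67 with equal cell numbers (-0.024). In the category comparisons 9 of 20 genes in neurons and 22 of 26 in progenitors kept their call and direction under every setting run. Gbx2 got no adjusted p from DESeq2. The cause of these changes was not tested. No cluster had markers of another class in the lead, so leaving such clusters out gave no other value.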
